A study of Mus musculus with 6 samples.

Results

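AP-1 and EGR immediate early transcription factors were followed in the epididymal fat of mice with a duplication of a chromosome interval and of wild type mice. The family was taken as every probe whose gene name in the scanner files was Fos, Fosb, Fosl2, Jun, Junb, Jund, Egr1, Egr2, Egr3 or Atf3, which gave 10 genes and 13 probes among 19194 genes or unnamed features tested. All 10 genes were measured. The first group was 3 patDp/+ males, a model of 15q11-13 duplication syndrome in which the duplication is inherited and so not limited to fat. The second group was 3 wild type males. All 6 were on a C57BL/6 genetic background and were 9 to 10 weeks old, and each sample was a separate mouse by the design text. RNA of each animal was labelled with Cy3 and hybridised to 1 array, and replicate 1, 2 and 3 of both genotypes lay on slides 1, 2 and 3.

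FOS and JUN proteins pair through leucine zippers to form AP-1, which binds DNA and turns on genes of growth, matrix remodelling and inflammation. EGR proteins are zinc finger factors that bind GC-rich sites. Most of these genes are nearly silent at rest and are switched on within minutes by growth factors, stretch, wounding or stress, through factors such as SRF and CREB that already sit on their promoters, and their mRNAs decay quickly. In fat, FOS, EGR2 and related factors appear early when precursor cells are made to differentiate, and handling of the tissue at dissection can also switch them on. The labels do not say how the tissue was removed, so each member is given array by array.

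Promoters are where such signals can act, and 6 of the members' promoters, all with matches to the motifs searched below, are printed. RefSeq windows on GRCm38.p6 were available for 8 members, and the 150 bases before an annotated start are shown here 5′ to 3′ on the strand of the gene. Egr2 has several annotated starts, of which 1 that holds several matches is shown. Capitals mark matches to the motifs searched.
Fos, chr12:85473740-85473889, plus strand: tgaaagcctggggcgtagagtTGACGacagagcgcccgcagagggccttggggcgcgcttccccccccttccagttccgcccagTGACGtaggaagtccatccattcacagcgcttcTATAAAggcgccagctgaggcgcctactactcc
Fosb, chr7:19310046-19310195, minus strand: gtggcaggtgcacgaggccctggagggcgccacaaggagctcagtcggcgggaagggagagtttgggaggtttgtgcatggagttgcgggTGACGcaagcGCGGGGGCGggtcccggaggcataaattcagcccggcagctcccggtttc
Jun, chr4:95052223-95052372, minus strand: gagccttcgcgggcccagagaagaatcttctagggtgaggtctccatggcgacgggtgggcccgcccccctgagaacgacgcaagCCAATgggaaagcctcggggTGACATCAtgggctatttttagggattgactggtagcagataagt
Junb, chr8:84978749-84978898, minus strand: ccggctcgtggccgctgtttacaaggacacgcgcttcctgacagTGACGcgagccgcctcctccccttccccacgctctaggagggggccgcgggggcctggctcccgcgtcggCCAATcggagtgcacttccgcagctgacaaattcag
Egr2, chr10:67537719-67537868, plus strand: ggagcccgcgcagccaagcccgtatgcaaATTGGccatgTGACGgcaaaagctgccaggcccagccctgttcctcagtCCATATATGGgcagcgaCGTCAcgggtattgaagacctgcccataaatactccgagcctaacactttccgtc
Atf3, chr1:191183334-191183483, minus strand: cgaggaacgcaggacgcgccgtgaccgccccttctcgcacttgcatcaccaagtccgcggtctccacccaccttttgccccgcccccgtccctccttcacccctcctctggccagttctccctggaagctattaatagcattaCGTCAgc

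Motifs were searched on both strands over whole windows of 300 bases, 250 before and 50 after the start, and their share is given over all 32851 such windows in the RefSeq table. The core motif TGACG of the CRE, the element bound by CREB and ATF proteins, lay 129 and 66 bases before the start of Fos, 60 before that of Fosb and 106 before that of Junb. The shown Egr2 window held it at 111 bases and, on the other strand, at 55 bases before the start, and Atf3 held it on the other strand at 7 bases. This short motif was in 20.8% of all windows. Jun carried the 8-letter site TGACATCA, through which AP-1 acts on the Jun promoter, 45 bases before its start, and 3.62% of all windows held that site. A CArG box, the 10-base element bound by SRF, lay 72 bases before the shown start of Egr2 and was in 1.63% of all windows. The EGR site GCGNGGGCG lay 50 bases before the start of Fosb and 79 before that of Fosl2, in the gene's own direction, against 5.55% of all windows. The TATA box TATAAA lay 33 bases before the start of Fos and at base 1 counted from the start of Junb (13.6% of all windows). CCAAT lay 65 before Jun and 36 before Junb (37.4%). On the other strand, where it reads ATTGG, it lay 121 bases before the shown start of Egr2 and at base 6 counted from that of Atf3. The AP-1 site TGANTCA (7.81%) and the full CRE TGACGTCA (1.79%), which contains that core, had no match in the members' windows. The Jund window, which is not printed, held none of the motifs searched, nor did that of the most upstream Egr2 start. The next Egr2 start had a CArG box but no CRE core. A match is a run of letters, and binding was not measured.

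Values are log2 of the processed intensity relative to the 75th percentile of the same array, so 0 is the level of a probe brighter than 75% of the probes, and a difference of 1 is a doubling. Differences are patDp/+ minus wild type with limma's standard error, and adjusted p-values are limma's after Benjamini-Hochberg adjustment over all genes, with a threshold of 0.05. Correlation between arrays across genes was at least 0.988. The 6 genes of the duplicated interval used to check the labels were higher in patDp/+ (Snrpn 2.28-fold), each at an unadjusted p under 0.05, and adipocyte markers were measured for 12 of 12 genes, 11 of them well above background on all 6 arrays, with a mean value of 6.96 to 7.14. No gene passed the adjusted threshold: limma called 0 of 19194 genes (0%, smallest adjusted p = 0.345), while 1075 had an unadjusted p under 0.05.

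None of the 10 members passed the adjusted threshold, with limma's adjusted p-values from 0.872 to 0.987. Egr2 alone had an unadjusted p under 0.05, in the higher direction, and no member did so in the lower direction. Over all genes, 2.68% were higher and 2.92% lower at that level. The difference was above 0 for 8 members and below 0 for Fos and Egr1, where 47.3% of all genes had a difference above 0. The median difference of the members was 0.30 against -0.0087 for all genes. Leaving out patDp/+ replicate 2 lowered that median to 0.15, and leaving out patDp/+ replicate 1 lowered it to 0.17. It rose to 0.34 without patDp/+ replicate 3 and likewise to 0.34 without wild type replicate 2. The members were chosen with these data known, so this shift is a description. In a piece of tissue, more cells of a type and more RNA per cell cannot be told apart.

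**Figure D1:**
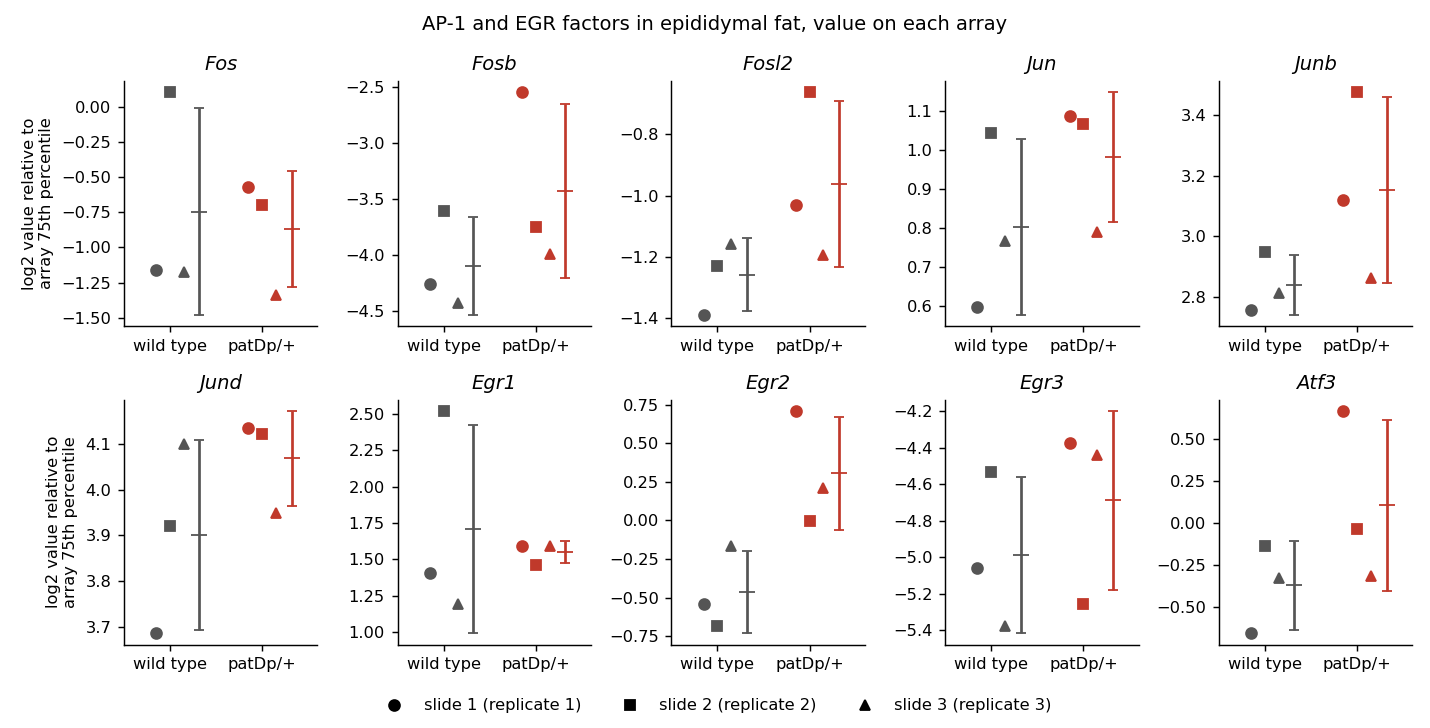
Value of each AP-1 and EGR gene on each of the 6 arrays, as log2 relative to the array's 75th percentile, by genotype; marker shapes give the slide, and the bar beside each group is its mean and SD (n = 3). The groups of Egr2 do not overlap, and wild type replicate 2 stands above the other wild type animals in Fos (0.10) and Egr1 (2.52).

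Egr2, a zinc finger factor of nerve myelination that also acts early in fat cell differentiation, was the member with the clearest separation of the groups. Its values in wild type were -0.54, -0.69 and -0.16, and in patDp/+ they were 0.71, -0.0049 and 0.21. Every patDp/+ animal was above every wild type animal, with replicate 1 the highest and replicate 2 close to the highest wild type value. The means were -0.46 ± 0.27 (SD, n = 3) and 0.31 ± 0.37 (SD, n = 3), a difference of 0.77 ± 0.22 or 1.70-fold (limma adjusted p = 0.872), with an unadjusted p under 0.05 that ranked 260 among all genes. Groups that do not overlap in this direction occurred in 5.26% of all genes, with 5.89% in the other. The difference within slides 1, 2 and 3 was 1.25, 0.68 and 0.37, so all 3 pairs of arrays had the same direction but not the same size. Without patDp/+ replicate 1 it was 0.57. The probe lies at chr10:67004758-67004817 on mm9, as the scanner files give it, on the plus strand. Whether the probes lie in coding or untranslated exons was not analysed here.

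Egr1, the EGR factor induced by the widest range of stimuli, did not separate the groups. Wild type values were 1.40, 2.52 and 1.19, and patDp/+ values were 1.59, 1.46 and 1.59. The patDp/+ animals lay within a narrow band and wild type replicate 2 stood far above everyone else, so the groups overlapped. The patDp/+ mean of 1.55 ± 0.07 (SD, n = 3) stood against 1.71 ± 0.72 (SD, n = 3) for the controls, a difference of -0.16 ± 0.34 (limma adjusted p = 0.979). Without wild type replicate 2 the difference was 0.25, in the other direction. Within slides it was 0.19, -1.06 and 0.40.

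Egr3, which is related to Egr2 and serves in muscle spindles and lymphocytes, was near the lower end of what the array measures. Its tested probe read -5.06, -4.53 and -5.38 in wild type and -4.37, -5.25 and -4.44 in patDp/+. High and low animals occurred in both genotypes, and the difference of 0.30 ± 0.31 (limma adjusted p = 0.943) was about as large as its error. Leaving out wild type replicate 3 gave 0.11, patDp/+ replicate 1 gave 0.14 and patDp/+ replicate 3 gave 0.18, whereas leaving out replicate 2 gave 0.53 for wild type and 0.59 for patDp/+. The lowest value counted as well above background was between -5.85 and -5.15 on the 6 arrays, close to these readings. Its other probe was not well above background on any array and was not tested.

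Among the FOS proteins, which need a JUN partner to bind DNA, Fos itself read -1.16, 0.10 and -1.18 in wild type and -0.57, -0.70 and -1.34 in patDp/+. As with Egr1, wild type replicate 2 was the highest of the 6 animals, and patDp/+ replicate 3 was the lowest. The means of -0.74 ± 0.74 (SD, n = 3) and -0.87 ± 0.41 (SD, n = 3) differed by -0.12 ± 0.40 (limma adjusted p = 0.987). Leaving out wild type replicate 2 gave 0.30 and leaving out patDp/+ replicate 3 gave 0.11, so the sign rested on these animals. Within slides the differences were 0.59, -0.80 and -0.16. The Fos probe lies at chr12:86817900-86817959 on mm9.

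Fosb, a paralogue of Fos with a similar zipper, was a dim probe with one high animal. It read -4.26, -3.60 and -4.42 in wild type and -2.55, -3.75 and -3.99 in patDp/+. The highest value was that of patDp/+ replicate 1, and the remaining animals of both genotypes overlapped. The difference was 0.67 ± 0.42, or 1.59-fold (limma adjusted p = 0.905), and without patDp/+ replicate 1 it was 0.23. Within slides it was 1.71, -0.15 and 0.44.

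Fosl2, or Fra-2, is a FOS protein without the strong activation domain of Fos and is abundant in fat and bone. Its brighter probe read -1.39, -1.23 and -1.16 in wild type and -1.03, -0.66 and -1.19 in patDp/+. The first 2 patDp/+ animals were above all wild type animals and the third was among them. The difference was 0.30 ± 0.15 (limma adjusted p = 0.887), and 0.36, 0.57 and -0.04 within slides. Without patDp/+ replicate 2 it was 0.15. A second probe, at chr5:32455088-32455147 on mm9 against chr5:32459624-32459683 for the first, was well above background on 1 of 3 wild type and 2 of 3 patDp/+ arrays, so its difference of 0.77 ± 0.47 (limma adjusted p = 0.965 over all probes) rests partly on values not above background.

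The 3 JUN genes, which can pair with one another or with FOS and ATF proteins, varied less between animals than Fos or Fosb. Jun, the strongest activator of the group, read 0.60, 1.04 and 0.77 in wild type and 1.09, 1.07 and 0.79 in patDp/+. Wild type replicate 2 lay just under the upper patDp/+ animals, and patDp/+ replicate 3 just above wild type replicate 3. The difference was 0.18 ± 0.15 (limma adjusted p = 0.932), with 0.49, 0.02 and 0.02 within slides. It was 0.076 without wild type replicate 1 and 0.30 without wild type replicate 2, and leaving out patDp/+ replicate 3 gave 0.27.

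Junb, a weaker activator that can hold Jun in check, read 2.76, 2.95 and 2.81 in wild type and 3.12, 3.48 and 2.86 in patDp/+. Only wild type replicate 2 and patDp/+ replicate 3 crossed between the groups. The difference was 0.31 ± 0.16, or 1.24-fold (limma adjusted p = 0.888), and it was 0.37, 0.53 and 0.05 within slides. Without patDp/+ replicate 2 it was 0.15. A second Junb probe, whose position overlaps that of the first, differed by 0.29 ± 0.14 (limma adjusted p = 0.965 over all probes). Jund, the member kept on in most resting tissues, read 3.69, 3.92 and 4.10 in wild type and 4.14, 4.12 and 3.95 in patDp/+. Its groups overlapped through patDp/+ replicate 3 and wild type replicate 3, and the difference was 0.17 ± 0.13 (limma adjusted p = 0.929), or 0.059 without wild type replicate 1 and 0.27 without wild type replicate 3.

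Atf3, a stress-induced factor of the ATF and CREB family that pairs with JUN proteins and often represses, read -0.66, -0.13 and -0.32 in wild type and 0.67, -0.04 and -0.32 in patDp/+. One animal, patDp/+ replicate 1, was far above the rest, and the other patDp/+ animals lay within or next to the wild type range. The difference was 0.48 ± 0.27, or 1.39-fold (limma adjusted p = 0.905). Within slides it was 1.32, 0.10 and 0.007, and without patDp/+ replicate 1 it was 0.20.

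**Figure D2:**
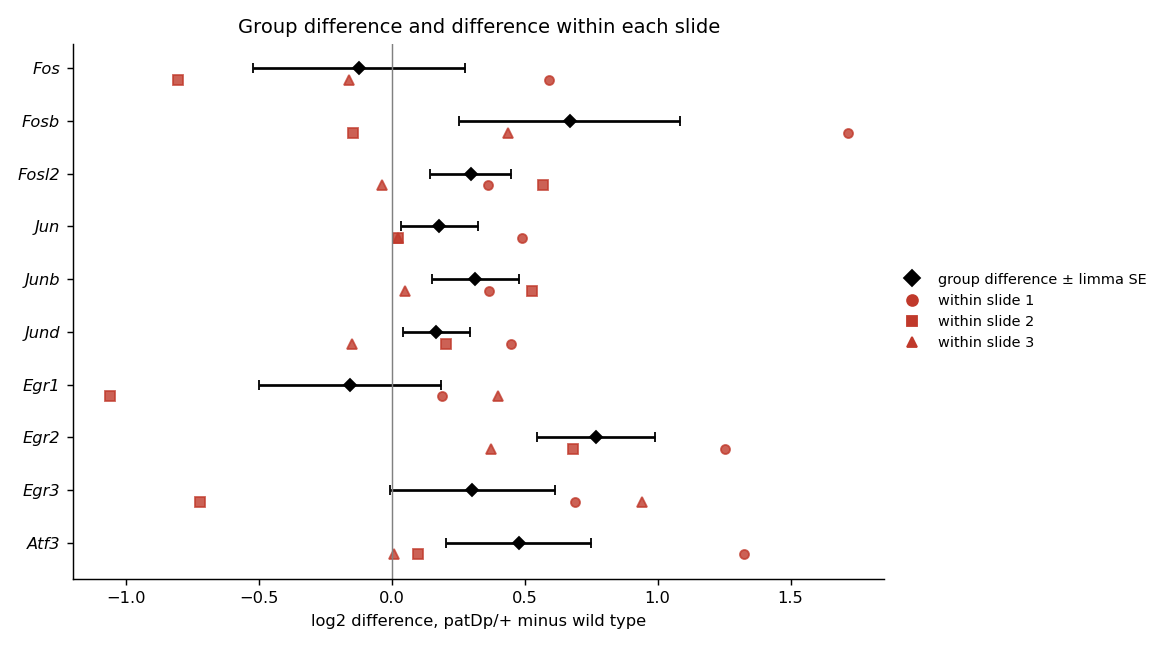
Log2 difference of each gene, patDp/+ minus wild type, with limma's standard error (black) and the difference within each slide (red shapes). The 3 slides lie on the same side of 0 for Egr2, Jun, Junb and Atf3, and on both sides for the other 6 genes.

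Arrays of one genotype differed from one another more in these genes than in most. The residual SD within groups had a median of 0.363 over the members against 0.146 over all genes. Of the 10 members, 5 (Fos, Fosb, Egr1, Egr3 and Atf3) lay above the 90th percentile of all genes for that spread, and Fosb was at the 96.7th and Fos at the 96.2nd. Fosb and Egr3 among these are dim, and the percentile takes no account of signal level. Jund, the steadiest member, was at the 56.4th percentile, and no member was below the median. Probes of Fos, Jun and Egr2 are printed in 10 spots on each array. These spots share one labelling and one hybridisation, so they show the error within an array and not that between arrays. The SD between spots of one array was 0.035 to 0.086 for Fos, 0.029 to 0.051 for Jun and 0.041 to 0.066 for Egr2. The residual SD within genotype was 0.596, 0.198 and 0.322 in the same order, and it holds the animals together with the extraction, labelling and array of each.

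**Figure D3:**
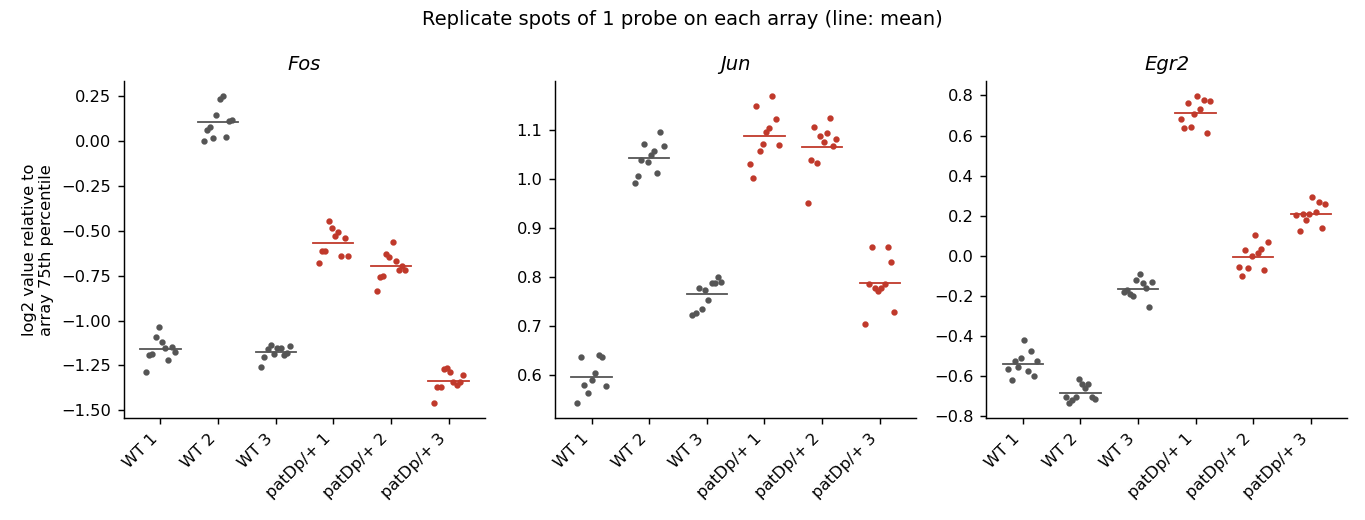
Log2 value relative to the array's 75th percentile of each replicate spot of Fos, Jun and Egr2 on each array (points) with its mean (line); grey is wild type and red is patDp/+. Wild type replicate 2 stands apart from the other arrays for Fos. Spots of several arrays overlap, among them wild type replicates 1 and 3 and patDp/+ replicates 1 and 2 for Fos. For Jun these include wild type replicate 2 with patDp/+ replicates 1 and 2, and wild type replicate 3 with patDp/+ replicate 3. For Egr2, spots of wild type replicate 3 and patDp/+ replicate 2 overlap narrowly.

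**Figure D4:**
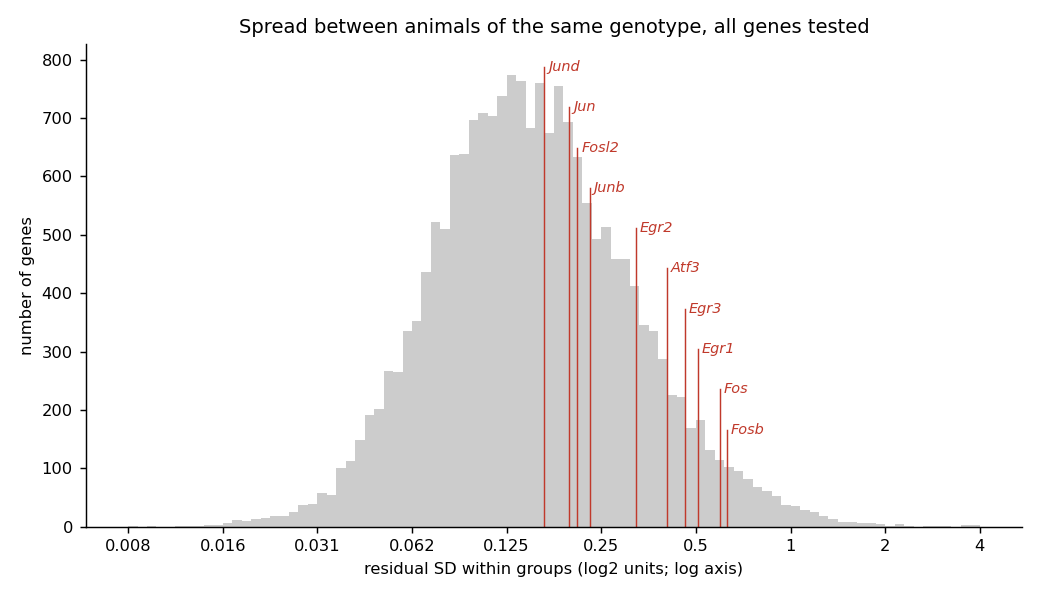
Number of genes by residual SD within genotype (log2 units, log axis) for all 19194 genes, with the 10 members as red lines. All 10 lie to the right of the median of 0.146, with Fosb and Fos farthest out.

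The members did not share one order of animals. The highest of the 6 arrays was patDp/+ replicate 1 for Fosb, Jun, Jund, Egr2, Egr3 and Atf3, which is 6 of 10 members, where that array was the highest for 18% of all genes. It was patDp/+ replicate 2 for Fosl2 and Junb, and wild type replicate 2 for Fos and Egr1, where all genes gave 13.5% and 18.7%. After each gene was centred on its mean, the median of the 10 members was -0.30, 0.07 and -0.19 on the wild type arrays and 0.22, 0.10 and -0.09 on the patDp/+ arrays. Wild type replicate 2 was therefore above patDp/+ replicate 3, and the groups overlapped.

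Over the 6 arrays, Fos correlated with Egr1 at r = 0.843 and with Jun at 0.752, but with Egr2 at -0.23. These are descriptions over 6 animals that include the genotype contrast. The value for Fos with Egr1 leans on wild type replicate 2, the highest array for both. Centred on each gene's mean, that array read 0.91 for Fos and 0.90 for Egr1. On patDp/+ replicate 3 the centred values were -0.53 for Fos, its lowest, and -0.03 for Egr1. No correlation was computed without wild type replicate 2. Among genes with a symbol, the 5 closest to Fos were Dclre1a, Ctrl, Gml, Srrd and Lcn10 (r from 0.968 to 0.990), and the 5 closest to Egr1 were Tfpt, Caprin1, 2610507B11Rik, Rbbp9 and Prr14 (r from 0.984 to 0.988). Egr1 ranked 255th for Fos among 14483 genes. Most of these closest genes covered a small range over the arrays, such as 0.14 for Rbbp9 and 0.38 for Dclre1a, against 1.44 for Fos.

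Beside the members stand other immediate early genes, which respond to the same signals. Of 44 listed genes 42 were measured, 31 with a difference above 0 and 11 below, with a median of 0.11, and none had an unadjusted p under 0.05. Nr4a1, an orphan nuclear receptor induced together with Fos, read 0.89, 2.39 and 0.94 in wild type and 1.57, 1.51 and 1.64 in patDp/+. Dusp1, the phosphatase that ends MAP kinase signalling, read 1.20, 1.96 and 1.16 against 1.33, 1.62 and 1.06. Both were highest in wild type replicate 2, as were 10 of the 42 genes, Ccn1 among them, where that array was the highest for 18.7% of all genes. Of the 42, 15 were highest in patDp/+ replicate 2 (13.5% of all genes) and 6 in patDp/+ replicate 1 (18%). Nr4a1, Dusp1 and Ccn1 were picked out after their values were seen. The genes with the smallest p on the list were Mcl1, a survival factor (0.20 ± 0.09, limma adjusted p = 0.879), and Ppp1r15a, which ends the block of translation under stress (0.40 ± 0.19, limma adjusted p = 0.881).

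Of the remaining AP-1 proteins and EGR partners, 21 of 22 were measured, with a difference above 0 for 15 and below 0 for 6 and a median of 0.053. Of these, 3 had an unadjusted p under 0.05, all higher, where 2.68% of all genes were higher at that level. Batf, an AP-1 factor of lymphocytes, read -1.51, -1.59 and -1.62 in wild type and -0.95, -0.83 and -1.39 in patDp/+, a difference of 0.52 ± 0.15 (limma adjusted p = 0.872). Its groups did not overlap, as for 5.26% of all genes in this direction, with patDp/+ replicate 3 the closest to wild type. Nab2, which EGR proteins induce and which then represses them, differed by 0.28 ± 0.19, and its relative Nab1 by 0.016 ± 0.083; both are named for their role and were chosen after their values were seen.

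Upstream, 27 of 29 listed symbols of kinases, adaptors and SRF cofactors were measured. Elk1 was not, and neither was Hras1, an older symbol of the measured Hras. The difference was above 0 for 15 and below 0 for 12, with a median of 0.022 and none at an unadjusted p under 0.05. Mapk7, or ERK5, had the smallest p (0.17 ± 0.07, limma adjusted p = 0.877), followed by Map2k7, a kinase that activates JNK (-0.14 ± 0.07, limma adjusted p = 0.881). These are transcript levels, and the activity of the kinases was not measured.

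Downstream, 25 of 26 genes known to carry AP-1 or EGR sites were measured, with a difference above 0 for 20 and below 0 for 5 and a median of 0.28. Of these, 8 had an unadjusted p under 0.05, all higher, where 2.68% of all genes were higher at that level, and none passed the adjusted threshold. Thbs1, a matrix protein that activates TGF-beta, read -1.84, -1.52 and -2.12 in wild type and -1.36, -0.75 and -0.58 in patDp/+, a difference of 0.93 ± 0.25 or 1.91-fold (limma adjusted p = 0.872). Ccn2, a connective tissue growth factor, read 1.13, 1.41 and 1.91 against 2.51, 2.17 and 2.14, a difference of 0.79 ± 0.22 or 1.73-fold (limma adjusted p = 0.872). The groups did not overlap for either gene, as for 5.26% of all genes in this direction. The list was made with earlier results of these data known, and many of its genes have other regulators.

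Markers of other cells also differed between the arrays. Macrophage markers had a difference above 0 in 12 of 12 genes (median 0.27, none at an unadjusted p under 0.05), and their mean value was 2.38 to 2.54 in wild type and 2.49 to 2.88 in patDp/+. Their centred median was 0.27, 0.21 and -0.12 on the patDp/+ arrays, high on replicates 1 and 2 and low on replicate 3, and -0.06, -0.17 and -0.16 in wild type. T cell markers had a difference above 0 in 8 of 8 measured genes, 5 at an unadjusted p under 0.05 (2.68% of all genes), with a mean value of -2.95 to -2.78 in wild type and -2.40 to -2.18 in patDp/+, and Cd4 and Trbc1 were not measured. Their centred median on patDp/+ replicate 3 was 0.24, where that of the members was -0.09. B cell markers had a difference below 0 in 6 of 6 measured genes. Of these, 1 (Cd79b) had an unadjusted p under 0.05, where 2.92% of all genes were lower at that level. Their mean value was -3.07 to -2.65 in wild type and -3.78 to -3.03 in patDp/+. Skeletal muscle markers had a difference above 0 in 4 of 6 measured genes, with a mean value of -2.93 to -2.46 against -2.67 to -2.28. Acta1 (2.47-fold) and Myh2 had an unadjusted p under 0.05 (2.68% of all genes were higher at that level). The other measured genes were Myh1 (0.24), Tnnt3 (0.008), Mylpf (-0.06) and Actn3 (-0.51), and Myh4 and Ckm were not measured. The difference was above 0 for 8 of 8 mesothelial and 4 of 4 measured red blood cell markers, and below 0 for 7 of 8 endothelial and 7 of 8 smooth muscle and pericyte markers. In these 4 lists only Emcn, an endothelial marker, had an unadjusted p under 0.05, in the lower direction. Adipocyte markers had a difference above 0 in 3 genes and below 0 in 9, with a median of -0.088 and none at that level. The part of these cells in the members' values was not tested.

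Heat shock genes, a second group that responds to stress of tissue, had a difference above 0 in 6 of 14 genes and a median of -0.012. Hspb1, a small chaperone, was the 1 gene with an unadjusted p under 0.05, where 2.68% of all genes were higher at that level. Its difference was 0.29 ± 0.09 (limma adjusted p = 0.872), and its groups did not overlap, as for 5.26% of all genes in this direction. The centred median of the heat shock genes stayed between -0.05 and 0.04 on the 6 arrays, and that of the members between -0.30 and 0.22. Of the 14 heat shock genes, 6 were highest on wild type replicate 2, where that array was the highest for 18.7% of all genes. An effect of handling on either group was not tested.

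**Figure D5:**
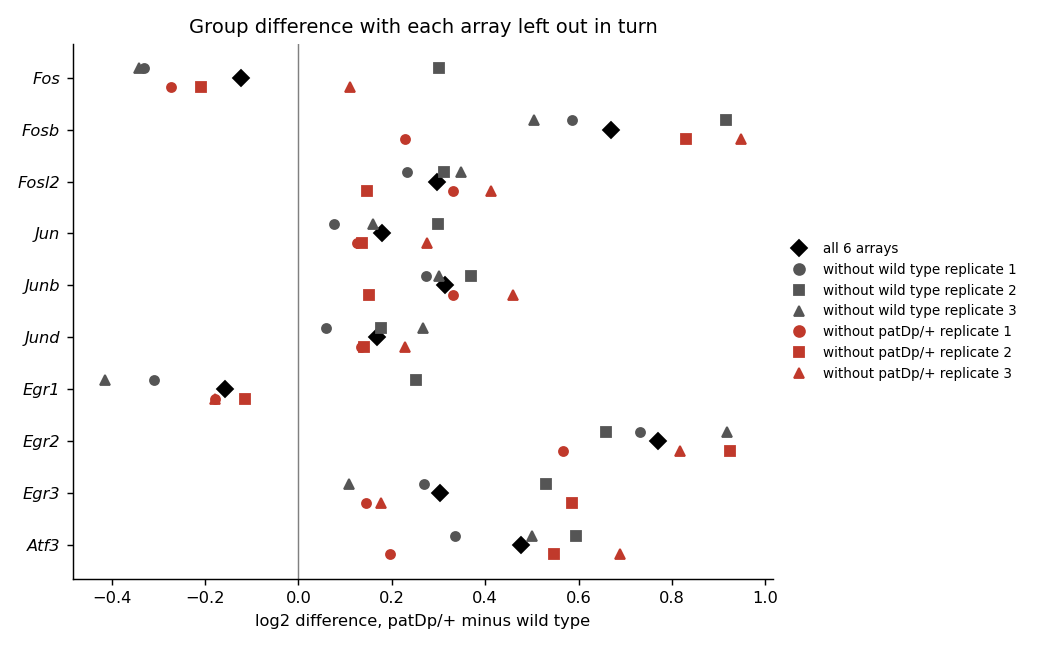
Log2 difference of each gene, patDp/+ minus wild type, with all 6 arrays (diamond) and with each array left out in turn (shapes by replicate, grey where a wild type and red where a patDp/+ array was left out). Fos and Egr1 cross 0 when wild type replicate 2 is left out (0.30 and 0.25), and Fos also does so without patDp/+ replicate 3 (0.11). Egr2 stays between 0.57 and 0.92.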

How the data were processed

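Each of 6 animals gave RNA for 1 single-colour Agilent array. Per the file headers, Feature Extraction 9.5.1.1 produced the deposited processed intensity, in which background was subtracted and a spatial trend removed. A deposited matrix of log2 values, of unknown background correction, was an alternative. The submitters' processing notes name limma 3.18.2 with no role.

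Values here are log2 processed intensities after subtraction of each array's 75th percentile. Control and outlier spots were dropped and spots of a probe averaged. Probes well above background on at least 3 of 6 arrays were kept (27975 of 41174), and the kept probe with the highest mean stood for a gene. Gene names are those of the scanner files, or of RefSeq where the accession matched (27050 probes). Limma 3.58.1 (R 4.3.3; lmFit, eBayes) compared the genotypes two-sided without covariates, with Benjamini-Hochberg adjustment over 19194 genes and a threshold of 0.05. The 12 tested probes of members were also fitted among 27975 probes, where 0 passed after adjustment and 1442 had an unadjusted p under 0.05. An exact permutation test of 3 against 3 cannot go below p = 0.1 and was not used. The limma procedure was tested on simulated data. The number of arrays limits the precision.

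The members and all lists were chosen with earlier results of these data known. Genes named beside the members are up to 2 of a list with the smallest p, and the 5 most correlated with Fos and with Egr1; exceptions are stated, and 1 gene is not reported here. Alternatives concerned background, scaling, probe filter, probe summary, variance model, slide and left-out arrays.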

Additional observations from a re-analysis of the deposited data

How the results depend on the processing

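The 10 differences were recomputed under 16 alternatives. The count over probes has no value where probes of a gene were averaged. Fosb, Fosl2, Jun, Junb, Jund, Egr2, Egr3 and Atf3 stayed above 0 in each. The slide block, the replicate block and the variance model could not change a member's difference. The probe filters changed none, and averaging probes moved only Fosl2 and Junb. Fos was above 0 with normexp background correction (0.0074) and with array weights (0.087), and ranged from -0.34 to 0.30 with 1 array left out. Egr1 ranged from -0.41 to 0.25, above 0 without wild type replicate 2. The number of members at an unadjusted p under 0.05 was 1, and it was 2 with normexp (Fosl2 and Egr2), 2 with the deposited table (the same genes) and 2 with array weights (Junb and Egr2). With 1 array left out it was 1 to 4, the highest without patDp/+ replicate 3 (Fosl2, Junb, Egr2 and Atf3). Over all genes, 829 were at that level with normexp, 969 with the deposited table and 1609 with array weights, against 1075 in the main setting. With 1 array left out, the genes at that level ranged from 755 without patDp/+ replicate 2 to 1788 without patDp/+ replicate 3. The counts of members are to be read beside these. Egr2 had an unadjusted p under 0.05 in every setting and no member passed after adjustment in any (lowest limma adjusted p = 0.461, without patDp/+ replicate 3). Causes were not tested.

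Deviations from the group means correlated at 0.106, -0.0898 and -0.0389 between same-numbered animals, and from -0.125 to 0.145 between the others. Number and slide coincide, so these values cannot show whether the numbers stand for another pairing. With the replicate block, which equals the slide as a block, 982 genes and, of the members, Egr2 had an unadjusted p under 0.05. Such a block could not change the Egr2 difference of 0.77. Egr3, Fosb and the second Fosl2 probe are dim, and Egr3 moved from 0.06 in the deposited table to 0.70 with normexp.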
